A study of Saccharomyces cerevisiae with 15 samples.

Results

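Translation factors and the Gcn2 pathway were described in budding yeast through 44 genes, chosen from the 7127 gene identifiers counted in each of the 15 libraries. The genes were chosen by name and known function, with no measured value in the rule, though earlier results of these data were known. Initiation factors bring the small ribosomal subunit, carrying the initiator tRNA, to the capped end of an mRNA and on to its start codon. Elongation factors deliver aminoacyl-tRNAs and move the ribosome along, and release factors end the chain at a stop codon. The kinase Gcn2, helped by Gcn1 and Gcn20, senses uncharged tRNA and phosphorylates eIF2, which holds back eIF2B and general initiation while translation of the transcription factor Gcn4 goes up.

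The 44 genes fall into 10 roles, given here with the identifiers of the count files. SUI1 (YNL244C), FUN12 (YAL035W), TIF11 (YMR260C) and TIF5 (YPR041W) help assemble the pre-initiation complex and choose or complete the start. SUI2 (YJR007W), SUI3 (YPL237W) and GCD11 (YER025W) are the subunits of eIF2. GCN3 (YKR026C), GCD7 (YLR291C), GCD1 (YOR260W), GCD2 (YGR083C) and GCD6 (YDR211W) are the subunits of eIF2B. RPG1 (YBR079C), PRT1 (YOR361C), NIP1 (YMR309C), TIF34 (YMR146C), TIF35 (YDR429C) and HCR1 (YLR192C) belong to eIF3. CDC33 (YOL139C), TIF4631 (YGR162W), TIF4632 (YGL049C), TIF1 (YKR059W), TIF2 (YJL138C), TIF3 (YPR163C), DED1 (YOR204W) and PAB1 (YER165W) work at the ends of the mRNA, as the cap-binding complex eIF4F with its partners, the helicase Ded1 and the poly(A)-binding protein. CAF20 (YOR276W) and EAP1 (YKL204W) bind eIF4E in place of eIF4G. TEF1 (YPR080W), TEF2 (YBR118W), EFB1 (YAL003W), TEF4 (YKL081W), CAM1 (YPL048W), EFT1 (YOR133W), EFT2 (YDR385W), YEF3 (YLR249W), HEF3 (YNL014W) and NEW1 (YPL226W) serve elongation. SUP35 (YDR172W) and SUP45 (YBR143C) are the release factors. STM1 (YLR150W) protects idle ribosomes. GCN2 (YDR283C), GCN1 (YGL195W) and GCN20 (YFR009W) form the Gcn2 pathway.

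All cells came from the Mother Enrichment Program strain UCC8773, in which estradiol stops new daughters from dividing, so that biotin-labelled mother cells age in the culture. The deletion strain (cth2△) is a derivative of UCC8773 that lacks TIS11, also called CTH2, the gene of an RNA-binding protein that acts on AU-rich mRNAs when iron is low. Old mothers were collected on magnetic beads after 30 h in YPD with 1 uM estradiol, and young cells, handled in the same way, after 2 h. Both assays used aliquots of the same cycloheximide lysates: RNase I released the ribosome footprints, which were taken from the 80S peak of a sucrose gradient, while mRNA was captured on beads and broken up by alkaline hydrolysis. Each assay had old deletion, young deletion, old wild-type and young wild-type groups, and every group had 2 libraries apart from the old deletion in RNA-seq, with 1. The labels do not say that the 2 libraries of a group came from separate cultures, so the p-values measure the spread between libraries, which may be technical. The labels name the strain but not the number of clones tested.

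The members include 3 pairs of nearly identical copies, and their sequences set what a short read can tell apart. The coding sequences of TIF1 and TIF2, which encode the helicase eIF4A, differ at 6 of 1188 bases. TEF1 and TEF2, which encode the tRNA-delivering factor eEF1A, differ at 2 of 1377 bases. EFT1 and EFT2, which encode the translocation factor eEF2, differ at 4 of 2529 bases. In TEF1 and TEF2, 95.9% of all 28-base words occur elsewhere in the genome, and in the other pairs 90.9% (TIF1 and TIF2) and 95.5% (EFT1 and EFT2). How the authors assigned such reads is not given in the sources used here, so counts of these 6 genes are uncertain between the 2 copies of a pair. One 60-base window of each pair is shown from the RefSeq R64 genome, 5′ to 3′ on the coding strand, with the bases that differ in capitals. YEF3 and HEF3, the 2 genes of the fungal elongation factor eEF3, are shown for contrast: they differ at 798 of 3135 bases, and reads can be assigned between them.
TIF1 (chrXI:555155-555214, plus strand): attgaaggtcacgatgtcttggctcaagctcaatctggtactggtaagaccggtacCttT
TIF2 (chrX:154464-154523, minus strand): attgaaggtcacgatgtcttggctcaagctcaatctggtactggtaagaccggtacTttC
TEF1 (chrXVI:701296-701355, plus strand): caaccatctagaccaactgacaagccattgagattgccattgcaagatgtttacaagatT
TEF2 (chrII:478373-478432, plus strand): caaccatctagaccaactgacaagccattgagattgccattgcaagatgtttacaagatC
EFT1 (chrXV:575485-575544, plus strand): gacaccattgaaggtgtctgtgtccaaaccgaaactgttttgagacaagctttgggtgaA
EFT2 (chrIV:1243617-1243676, plus strand): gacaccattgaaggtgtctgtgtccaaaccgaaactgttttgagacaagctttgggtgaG
YEF3 (chrXII:636922-636981, plus strand): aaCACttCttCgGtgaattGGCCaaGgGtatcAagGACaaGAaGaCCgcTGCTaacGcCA
HEF3 (chrXIV:606461-606520, plus strand): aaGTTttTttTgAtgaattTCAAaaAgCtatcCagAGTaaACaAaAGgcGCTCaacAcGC

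Because Cth2 binds AU-rich sequence, the 300 bases downstream of each stop codon were searched on the coding strand in R64. The 9-base element TTATTTATT was in 0 of 44 members, against 217 of 5989 protein-coding genes (3.62%). The shorter core TATTTAT, which the longer element contains, was in 5 of 44 members (11.4%), against 1021 of 5989 genes (17.0%). These are the sites of TIF11 (eIF1A), TIF5 (eIF5, which stimulates GTP hydrolysis by eIF2), GCD11 (eIF2 gamma), CAM1 (a gamma subunit of the exchange factor of eEF1A) and GCN1. A match is letters only and not a measured site. They are shown with the core in capitals, because strain comparisons of these genes follow.
TIF11 (chrXIII:789307-789333, minus strand, 55 bases past the stop codon): attcataattTATTTATaattatattt
TIF5 (chrXVI:650017-650043, plus strand, 106 bases past the stop codon): gatatgtaaaTATTTATaaatataata
GCD11 (chrV:207098-207124, plus strand, 274 bases past the stop codon): attaagcaaaTATTTATctcatagttc
CAM1 (chrXVI:465705-465731, plus strand, 67 bases past the stop codon): atctatatctTATTTATgacgcaatat
GCN1 (chrVII:139659-139685, plus strand, 126 bases past the stop codon): gcataagggtTATTTATatatctattg

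The base at position -3 of the start codon is part of the context that scanning ribosomes read. It was A in 32 of 44 members (72.7%), against 3646 of 5989 protein-coding genes (60.9%). C stood there in SUI1 and PRT1 and T in STM1 and GCN2. These 4 windows and those of DED1 and CAF20, which recur below, are shown with position -3 and the start codon in capitals. Of the other motifs searched on both strands in the 250 bases before the start codon, the Gcn4 core TGACTC was in 0 of 44 members (6.26% of genes) and the Rap1 core ACCCATACA in 1, EAP1 (0.401% of genes). The EAP1 match ends directly before the start codon, and it too is letters only and not a measured site.
SUI1 (chrXIV:187488-187508, minus strand): gaagcaaatCgtATGtccatt
PRT1 (chrXV:1017644-1017664, minus strand): agcgggaaaCtaATGaaaaat
STM1 (chrXII:440455-440475, plus strand): attttattcTcaATGtccaac
GCN2 (chrIV:1030041-1030061, minus strand): tactatgtaTaaATGtcattg
DED1 (chrXV:722899-722919, plus strand): gcatttcatAttATGgctgaa
CAF20 (chrXV:841321-841341, plus strand): taatttcacGacATGatcaag

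Library totals ran between 1629345 and 6198680 counts, and 3 counts, taken as the floor, corresponded to 0.484 to 1.84 CPM, the counts scaled by library size. That floor reflects counting error alone, since no molecular identifiers tell copies of 1 molecule apart. TIS11 had 1 to 17 counts in the libraries labelled deletion and 28 to 516 in wild type. Between 2.23% and 4.25% of a library's counts fell in the 44 members. The young libraries of each strain differed from each other in the same way: the 10 stress genes took 0.960 and 2.95% of the footprint counts in young deletion libraries 1 and 2, and 2.88 and 0.941% in young wild-type libraries 1 and 2. The members' share ran the other way, at 4.11 and 2.86% in young deletion libraries and 2.94 and 4.25% in young wild-type libraries. In old libraries it was 3.62 and 3.73% in the deletion and 3.51 and 3.35% in wild type, between the 2 young libraries of either strain.

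**Figure D1:**
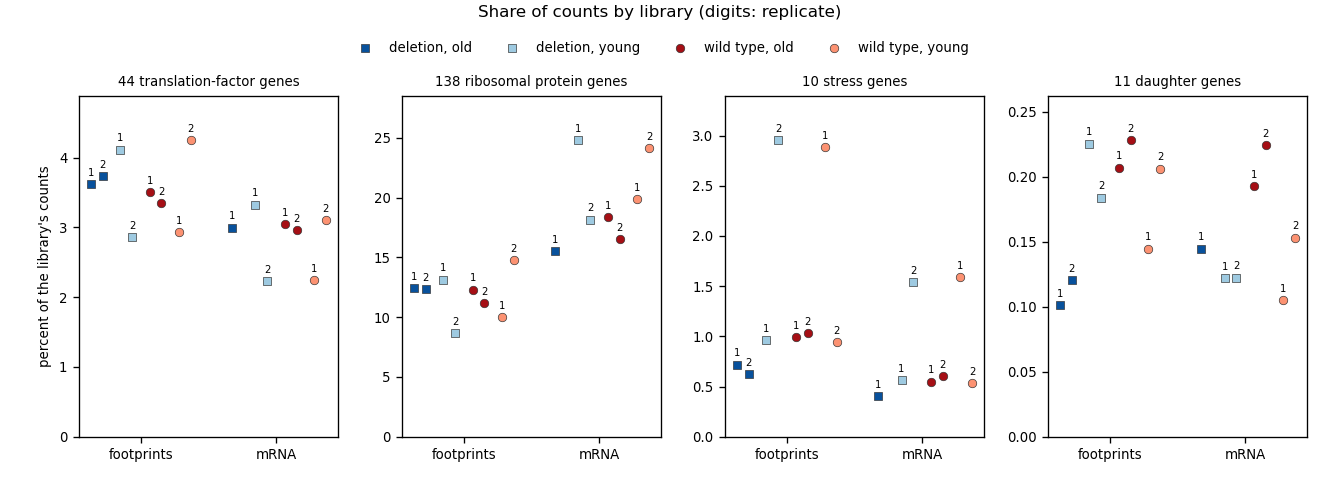
Share of each library's counts (percent, linear axis from 0) taken by the 44 translation-factor genes, 138 ribosomal protein genes, 10 stress genes and 11 daughter-expressed genes; each point is 1 library, and the digit is its replicate. Young deletion library 2 and young wild-type library 1 are lower than the other young library of their strain for the members and for ribosomal protein genes, and higher for stress genes, in both assays.

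That difference between young libraries touches every age result below. In CPM on edgeR's default scaling (trimmed mean of M values, TMM), 38 of 44 members were higher in young deletion footprint library 1 than in library 2, with a median log2 difference of 0.38. In young wild type, 40 of 44 were lower in library 1 than in library 2, with a median of -0.42. Ribosomal protein genes differed in the same directions, with medians of 0.60 and -0.55, and all genes had medians of -0.02 in both strains. The part of this difference in the results was not tested. In a library made from many cells together, fewer cells of a kind and less RNA per cell cannot be told apart.

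Levels were compared between genes per length, as counts per kilobase, scaled to the same sum in every library (TPM). In young wild-type footprints the members spanned over 3 orders of magnitude, with EFB1 at the top and HEF3 at the bottom. EFB1, the exchange subunit that recharges eEF1A, had 2911 and 4845 TPM. STM1, which binds and preserves idle ribosomes, had 2553 and 3248 TPM, and YEF3, the main eEF3 gene, 2004 and 3333 TPM. EFB1 was above STM1 and YEF3 in both libraries, while the order of STM1 and YEF3 differed between the 2. HEF3 had 1.50 and 0.880 TPM, from 20 and 12 counts, and next above it GCN2 had 9.59 and 9.65 TPM. The EFB1 gene (chrI:142174-143160, plus strand, 2 coding exons) holds a small RNA gene within its bounds, in R64, and whether reads of that RNA were counted is not known.

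**Figure D2:**
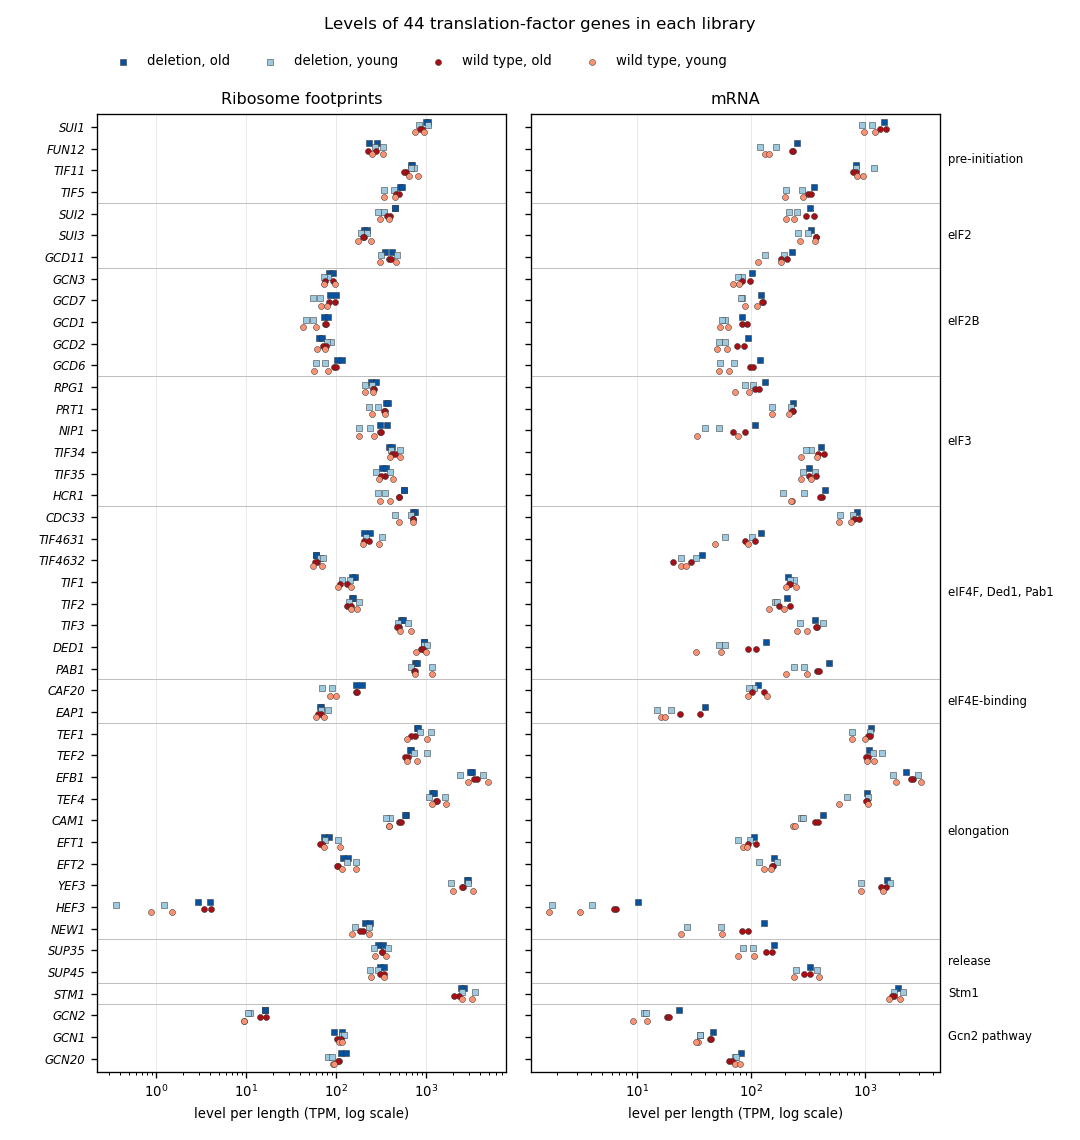
Level per length (TPM, log axis) of the 44 members in ribosome footprints and in mRNA; each point is 1 library, coloured by strain and age, and horizontal lines separate the roles. The subunits of eIF3 lie closer together in footprints than in mRNA, and HEF3 and GCN2 are the lowest members in both.

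Among the pre-initiation factors, SUI1 (eIF1, which guards start-codon choice) had 759.7 and 951 TPM in young wild-type footprints and FUN12 (eIF5B, which joins the subunits) 251 and 333 TPM. In eIF2, which carries the initiator tRNA, GCD11 had 310.4 and 469 TPM and SUI3, the beta subunit, 177 and 248 TPM. In eIF2B, the exchange factor that recharges eIF2, GCN3 had 73.8 and 98.2 TPM and GCD1 43.6 and 60.1 TPM. Both eIF2B genes were below both eIF2 genes in each library. In the eIF3 group, TIF34 had 403 and 513 TPM and NIP1 179 and 263 TPM. In the cap-binding group, PAB1 (the poly(A)-binding protein) had 750.1 and 1184 TPM and TIF4632 (the second eIF4G gene) 69.4 and 55.9 TPM. For the eIF4E-binding proteins the values were 87.1 and 99.8 TPM in CAF20 and 73.1 and 60.5 TPM in EAP1, and for the release factors 269.9 and 361 TPM in SUP35 and 244 and 346 TPM in SUP45. SUP35 was above SUP45 by little in both libraries, and the order of SUI1 and PAB1 differed between the 2.

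Subunits of 1 complex were set against each other within each library, a ratio that does not depend on scaling. The core of eIF3, a scaffold on the small subunit, has 5 subunits here (RPG1, PRT1, NIP1, TIF34 and TIF35). The highest of them stood 1.48 to 2.27 times above the lowest in the 8 footprint libraries, and 3.86 to 8.18 times in the 7 mRNA libraries, so the ranges of the 2 assays did not overlap. In wild type, the ratio was 1.59 and 1.76 in old and 2.25 and 1.96 in young footprints, against 5.61 and 4.91 in old and 8.18 and 4.92 in young mRNA. NIP1 was the lowest subunit in all 7 mRNA libraries, at 69.5 and 89.6 TPM in old and 33.9 and 77.8 TPM in young wild-type mRNA. Its footprint level was 310.0 and 314 TPM in old and 179 and 263 TPM in young wild type.

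In eIF2 and eIF2B the spread between subunits overlapped between assays, but the order of the subunits differed. In eIF2 the ratio of highest to lowest subunit was 1.69 to 2.20 in footprints and 1.46 to 2.33 in mRNA. SUI3 was the lowest eIF2 subunit in all 8 footprint libraries and the highest in all 7 mRNA libraries, with 177 and 248 TPM in young wild-type footprints and 272 and 363 TPM in young wild-type mRNA. GCD11 was the lowest in all 7 mRNA libraries, at 117 and 185 TPM in young wild type, against 310.4 and 469 TPM in footprints. In eIF2B the ratio was 1.26 to 1.71 in footprints and 1.42 to 1.81 in mRNA. GCD7 was the highest eIF2B subunit in all 7 mRNA libraries and in 0 of 8 footprint libraries. The mean of the eIF2B subunits was 0.212 to 0.270 of the mean of the eIF2 subunits in the footprint libraries. For the 2 release factors, SUP35 (the GTPase eRF3) over SUP45 (eRF1, which reads the stop codon) was 0.949 to 1.28 in footprints and 0.272 to 0.478 in mRNA, ranges that did not overlap.

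Footprints were then set against mRNA gene by gene, with edgeR's quasi-likelihood test over 15 libraries and 6050 genes and Benjamini-Hochberg adjustment. This main test did not use the pairing of assays within a lysate. A gene is called at an adjusted p under 0.05, and CPM set against each other across assays were scaled over all 15 libraries, so they differ from the CPM scaled within an assay that the age and strain comparisons use. In young deletion cells, 21 members were called higher in footprints than in mRNA, beside 20.5% of all genes, and 2 lower (TIF1 and HEF3), beside 30.3%. In old wild type, 17 were higher, beside 18.6% of all genes, and 0 lower, beside 24.3%. In young wild type, 23 were higher, beside 19.9%, and 1 lower (TIF1), beside 28.6%. The members' median log2 difference was 0.64 in young deletion, 0.55 in old wild type and 0.76 in young wild type, against all-gene medians of -0.13, -0.05 and -0.10.

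The counts depend on scaling and on the pairing of assays within a lysate. Scaled by library totals with no TMM factor, the all-gene median was -0.70 in young deletion, -0.63 in old wild type and -0.68 in young wild type. On that scale 12 members were called higher and 11 lower in young deletion (beside 8.88% and 49.3% of all genes), 8 and 11 in old wild type (beside 6.2% and 46.8%), and 13 and 10 in young wild type (beside 8.02% and 49.1%). A change of scaling shifts all genes of a comparison by about the same amount, so by construction it hardly moves the members relative to other genes. With each lysate as a block, 34 members were called in young deletion (29 higher, 5 lower, beside 69.2% of all genes called). That block gave 32 in young wild type (28 higher, 4 lower, beside 67.8%). It gave 34 in old wild type (27 higher, 7 lower, beside 31.7% and 33.4% of all genes). Leaving out old wild-type mRNA library 1 left 9 calls there, mRNA library 2 11, footprint library 1 10 and footprint library 2 13, beside 28.2% to 30.4% of all genes. The members' median in young deletion was 0.36 without mRNA library 2 and 0.94 without mRNA library 1, and in young wild type 0.48 without mRNA library 1 and 0.49 without footprint library 2. In old wild type limma's voom called 28 members, beside 62.2% of all genes, and edgeR with only the groups compared 35, beside 67.2%. With only the groups compared, 12 were called in young deletion (30.4% of genes) and 15 in young wild type (30.7%).

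DED1, a helicase that helps the small subunit scan the leader, had the most footprints per mRNA of the 44 members in each of the 7 lysates. Its footprints were 2619 and 2621 CPM in young deletion, 1892 and 1911 CPM in old wild type and 2534 and 2085 CPM in young wild type. Its mRNA was 130.0 and 128 CPM in young deletion, 198 and 151 CPM in old wild type and 75.1 and 125 CPM in young wild type. Every footprint library lay far above every mRNA library. The log2 difference was 4.34 (SE 0.26, edgeR adjusted p = 3.58e-06) in young deletion, 3.45 (SE 0.25, adjusted p = 8.94e-06) in old wild type and 4.53 (SE 0.27, adjusted p = 2.61e-06) in young wild type. Among genes averaging 10 CPM or more, 5052 to 5056 per lysate, the rank of DED1 from the top lay between 2 and 8. The gene is at chrXV:722911-724725 on the plus strand, a single coding exon, and no other gene of the R64 annotation overlaps it.

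**Figure D3:**
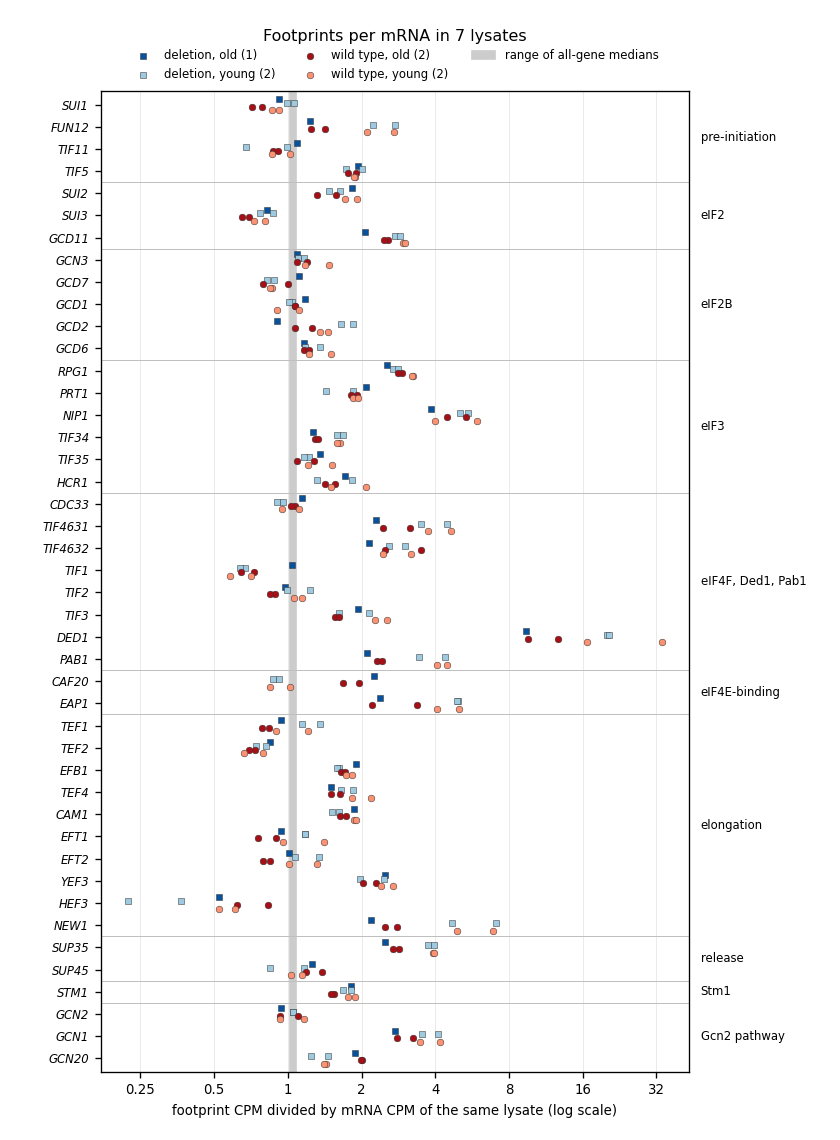
Footprint CPM divided by mRNA CPM of the same lysate (log axis) for the 44 members; each point is 1 of 7 lysates (1 for old deletion, 2 for each other group), and the grey band is the range of the medians of all genes. DED1 lies far to the right in every lysate, with its old lysates below its young ones.

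Other members far above their mRNA were spread over the roles. NEW1, a relative of eEF3 that acts at termination, had 752 and 1231 CPM of footprints and 109.6 and 252 CPM of mRNA in young wild type (log2 difference 2.45, SE 0.46, edgeR adjusted p = 0.00160). NIP1 had 612 and 941 CPM of footprints and 104 and 236 CPM of mRNA (2.19, SE 0.38, adjusted p = 0.000938). EAP1, an eIF4E-binding protein, had 194 and 169 CPM of footprints and 38.9 and 41.4 CPM of mRNA (2.18, SE 0.18, adjusted p = 1.04e-05). In all 3 genes both footprint libraries exceeded both mRNA libraries, as in PAB1 (2.10, SE 0.34, adjusted p = 0.000554). In old wild type TIF4632 had 198 and 179 CPM of footprints and 56.4 and 72.0 CPM of mRNA (1.56, SE 0.17, adjusted p = 6.97e-05), and RPG1, the largest eIF3 subunit, 905 and 842 CPM of footprints and 308 and 299 CPM of mRNA (1.52, SE 0.23, adjusted p = 0.000415).

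At the other end, HEF3 had 1.69 and 5.52 CPM of footprints and 7.65 and 15.04 CPM of mRNA in young deletion (-1.51, SE 0.51, edgeR adjusted p = 0.0303). In young wild type it had 6.59 and 4.05 CPM of footprints and 12.6 and 6.65 CPM of mRNA (-0.82, SE 0.50), not called. TEF2 had 1181 and 1633 CPM of footprints and 1793 and 2061 CPM of mRNA in young wild type (-0.45, SE 0.25), not called. TIF1 had 177 and 260.4 CPM of footprints and 304 and 369 CPM of mRNA in young wild type (-0.62, SE 0.23, adjusted p = 0.0430), but with the counts of each near-identical pair summed 0 members were called lower there. SUI3 was lowest in old wild type, with 205 and 195 CPM of footprints and 315 and 281 CPM of mRNA (-0.58, SE 0.23, adjusted p = 0.0697).

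Within the Gcn2 pathway the 3 genes differed in footprints per mRNA. GCN1, a large ribosome-binding scaffold, gave 3.54 and 4.12 in the 2 young deletion lysates, 2.79 and 3.26 in old wild type and 3.48 and 4.19 in young wild type. GCN2 gave 1.05 and 1.05 in young deletion, 0.926 and 1.099 in old wild type and 1.16 and 0.928 in young wild type, close to the all-gene medians of 1.02 to 1.07. GCN20, the ATP-binding partner of Gcn1, gave 1.24 and 1.46 in young deletion, 2.02 and 1.9978 in old wild type and 1.44 and 1.41 in young wild type. The log2 difference between footprints and mRNA in young wild type was 1.93 for GCN1 (SE 0.17, edgeR adjusted p = 1.37e-05), 0.51 for GCN20 (SE 0.14, adjusted p = 0.0117) and 0.04 for GCN2 (SE 0.16, adjusted p = 0.857). Per length, GCN1 over GCN2 was 5.81 and 7.24 in old and 10.5 and 11.6 in young deletion footprints, and 7.14 and 6.89 in old and 11.3 and 12.03 in young wild-type footprints. The old and young ranges of that ratio did not overlap in either strain. In mRNA the ratio was 2.37 and 2.32 in old and 3.77 and 2.67 in young wild type. It was 1.99 in the single old deletion mRNA library and 3.12 and 2.95 in young deletion mRNA. The old mRNA values thus lay below the young ones as well.

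The age comparison asked how the members differ between old mothers and young cells. In wild-type mRNA, edgeR and DESeq2 both called 0 of 44 members, beside 0.951% of 5991 genes by edgeR. At an unadjusted p under 0.05, 1 member was higher (DED1, beside 10.3% of genes) and 1 lower (GCN20, beside 9.6%). Old and young libraries did not overlap for 11 members on the high side and 11 on the low side, beside 30.1% and 27.8% of all genes. The members' median log2 fold change was -0.07 against -0.0046 for all genes, and it was -0.26 without young library 1 and 0.16 without young library 2.

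DED1 mRNA was 242 and 185 CPM in old and 92.0 and 153 CPM in young wild type, a log2 fold change of 0.80 (SE 0.28, edgeR adjusted p = 0.201). NEW1 mRNA was 367 and 368 CPM in old and 134 and 309 CPM in young wild type. HEF3 mRNA was 24.8 and 21.3 CPM in old and 15.4 and 8.18 CPM in young wild type. In all 3 genes the old libraries lay above both young ones, and the single old deletion library gave 245 CPM for DED1, 463 CPM for NEW1 and 32.0 CPM for HEF3. On the low side, GCN20 mRNA was 175 and 165 CPM in old and 251 and 278 CPM in young wild type (-0.64, SE 0.18, adjusted p = 0.151). TIF11 mRNA was 464 and 397 CPM in old and 604 and 679 CPM in young wild type, and TEF2 mRNA 1698 and 1594 CPM in old and 2196 and 2533 CPM in young wild type. Those 3 did not overlap between ages either, and none was called. The rule that named the genes of this paragraph asked for separate ages in wild type, so that separation is no result.

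In footprints, most members stood lower, relative to other genes, in old cells of both strains. In the deletion, 1 member was called higher (CAF20) and 4 lower (TEF2, GCD2, TIF4632 and GCN1), beside 9.16% and 8.06% of 5308 genes. In wild type edgeR called 0 members, beside 2.98% of genes, and DESeq2 called 2 lower, beside 3.2% of genes. At an unadjusted p under 0.05 edgeR had 3 members higher and 10 lower, beside 12.5% and 10.5% of genes. The members' median log2 fold change was -0.42 in the deletion and -0.35 in wild type, against -0.00021 and 0.0066 for all genes. Of the 44, 32 were below 0 in both strains (72.7%, against 41.6% of all genes), 8 above 0 in both and 4 opposite. The strains share no library, but both have 1 young library in each of the 2 states described above.

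**Figure D4:**
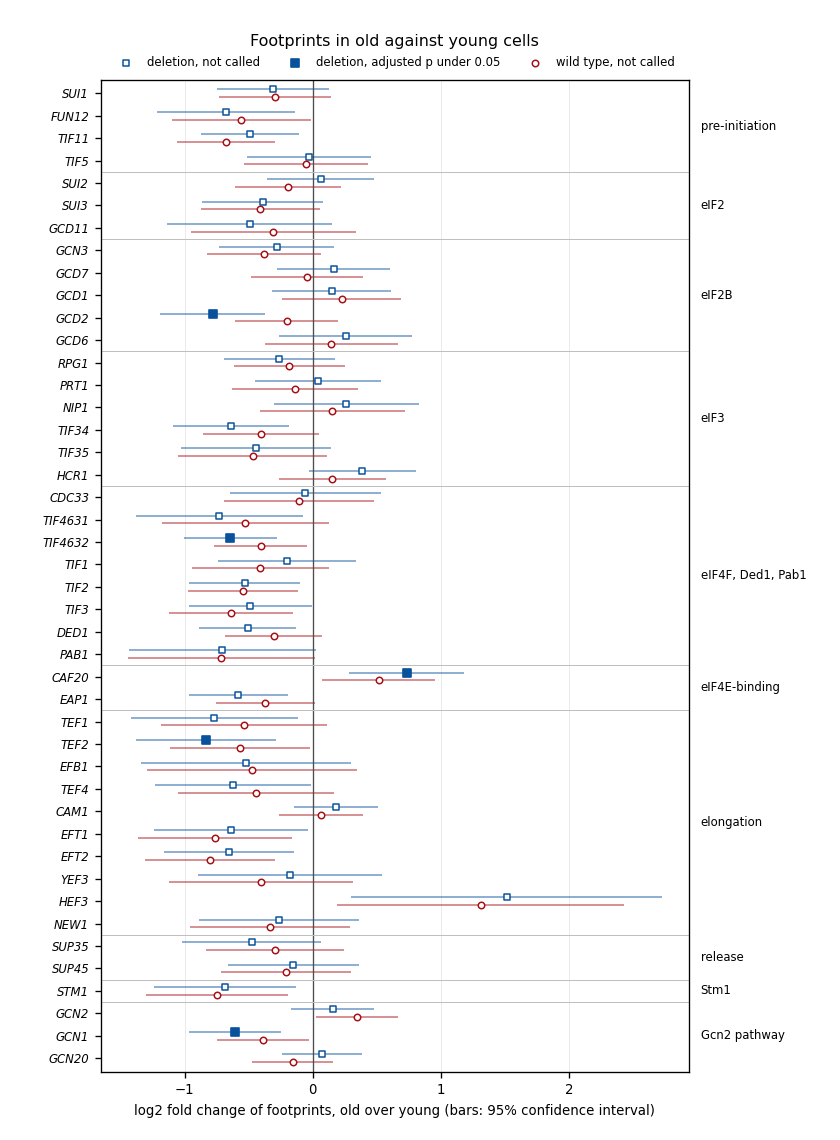
Log2 fold change of footprints, old over young, for each member in the deletion (squares) and in wild type (circles), with 95% confidence intervals from the edgeR fit of 8 libraries; filled symbols were called at an adjusted p under 0.05. The fold changes are scaled by TMM, so 0 is the typical gene. CAF20, HEF3, CAM1, GCN2, GCD1, GCD6, NIP1 and HCR1 lie to the right in both strains and most others to the left.

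This direction is relative to the typical gene. With library totals in place of TMM factors, the all-gene median was 0.46 in the deletion and 0.34 in wild type, and the members split into 23 higher and 21 lower in the deletion and 22 and 22 in wild type. On that scale 8 members were called higher in the deletion (GCD7, GCD6, HCR1, CAF20, CAM1, HEF3, GCN2 and GCN20), beside 31.8% of genes, and 2 in wild type (CAF20 and GCN2), beside 12.3%. On it 0 members were called lower in the deletion, beside 2.62% of genes, and 0 in wild type, beside 0.641%. Relative to the all-gene median, against which a change of scaling by construction moves genes very little, 32 members in the deletion and 36 in wild type were lower. The members' TMM median was -0.14 without young deletion library 1 and -0.50 without library 2, and -0.11 without young wild-type library 2 and -0.48 without library 1. In the deletion 0 members were called without either old library or with the 4 deletion libraries alone, and 3 without either young library, beside 0.857% to 1.06% of genes without an old library, 3.16% with the deletion libraries alone, and 22.4% and 7% without young library 1 and 2. Voom called 9 members there (1 higher, 8 lower), beside 19.8% of genes.

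By role, all 8 genes of the cap-binding group lay below 0 in both strains on the TMM scale, as did all 4 pre-initiation factors, both release factors and STM1. Of the 10 elongation factors 8 lay below 0 in each strain, the exceptions being CAM1 and HEF3. Of the eIF2 subunits 2 of 3 lay below 0 in the deletion and 3 of 3 in wild type. The other groups were divided: 3 of 6 eIF3 genes lay below 0 in the deletion and 4 of 6 in wild type, 2 of 5 eIF2B subunits in the deletion and 3 of 5 in wild type, 1 of 2 eIF4E-binding genes in each strain, and 1 of 3 genes of the Gcn2 pathway in the deletion and 2 of 3 in wild type. The old and young libraries did not overlap for 25 members on the low side and 6 on the high side in the deletion (beside 31.9% and 33.4% of all genes), and for 22 and 4 in wild type (beside 27.3% and 30.7%). Among the ribosomal protein genes the median was -0.25 in the deletion and -0.39 in wild type, and among the 10 stress genes -2.27 in the deletion and -1.48 in wild type.

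CAF20 encodes a protein that competes with eIF4G for the cap-binding factor eIF4E. Its footprints were 86.7 and 72.4 CPM in old and 54.8 and 41.2 CPM in young deletion cells, and 78.8 and 77.6 CPM in old and 50.8 and 58.8 CPM in young wild type. In the deletion they rose, with a log2 fold change of 0.73 (SE 0.19, edgeR adjusted p = 0.0420). In wild type CAF20 differed by 0.51 (SE 0.19, adjusted p = 0.173), with no overlap between ages. The other eIF4E-binding gene, EAP1, had 121 and 114 CPM in old and 163 and 189 CPM in young deletion footprints, and 126 and 111 CPM in old and 166 and 139 CPM in young wild-type footprints, lower in old cells in both strains and not called. The ratio of CAF20 to EAP1 per length, which needs no scaling, was 2.79 and 2.48 in old and 1.32 and 0.852 in young deletion footprints, and 2.45 and 2.74 in old and 1.19 and 1.65 in young wild-type footprints. In mRNA the same ratio ran the other way, at 4.22 and 3.60 in old and 5.81 and 7.95 in young wild type.

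**Figure D5:**
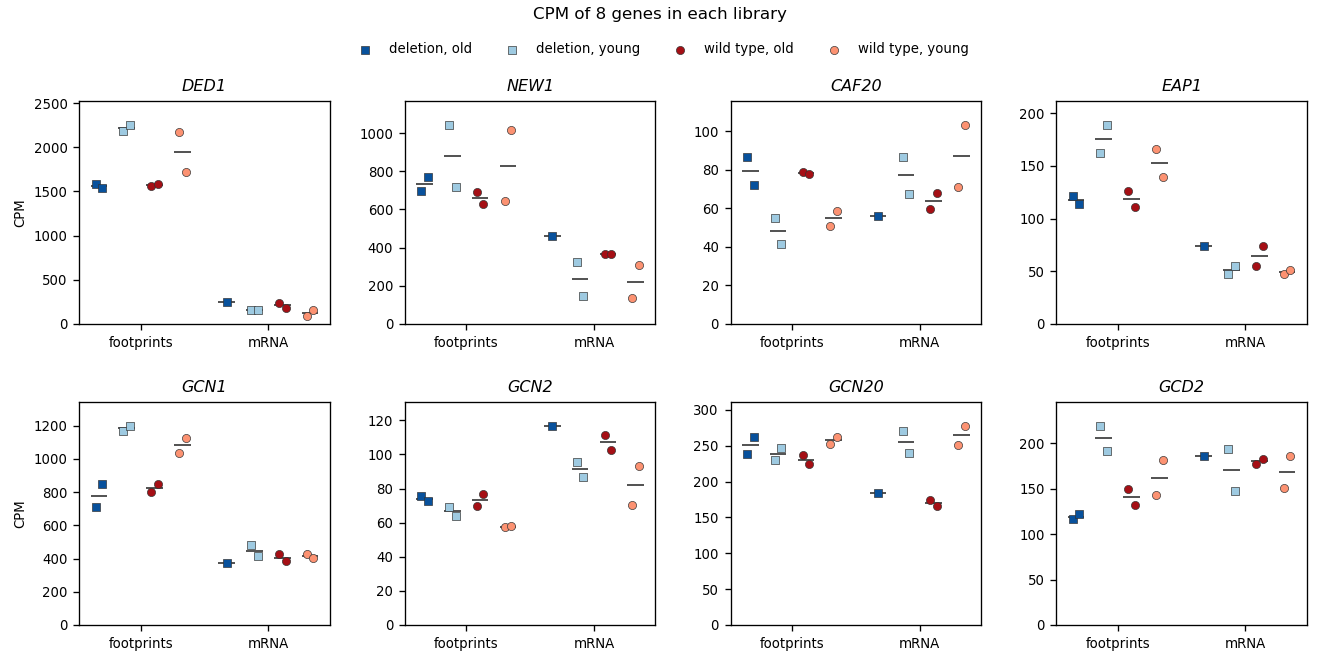
CPM (TMM-scaled within each assay, linear axes from 0) of 8 members in footprints and mRNA; each point is 1 library, ordered old deletion, young deletion, old wild type, young wild type, and each bar is the group mean. CAF20 footprints are higher and EAP1 and GCN1 footprints lower in the old groups of both strains, while DED1 and NEW1 mRNA are higher in the old groups.

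Of the 4 genes that fell in deletion footprints, GCD2, the delta subunit of eIF2B, had 116 and 122 CPM in old and 219 and 192 CPM in young cells (log2 fold change -0.78, SE 0.17, edgeR adjusted p = 0.0276). In wild type GCD2 had 149 and 132 CPM in old and 143 and 181 CPM in young cells, with overlapping ages. The difference between the strains' age responses was -0.58 for GCD2 (SE 0.24, unadjusted p = 0.0469 from edgeR over 8 libraries, adjusted p = 0.99990), so it was not called. TIF4632 had 151 and 147 CPM in old and 228 and 238 CPM in young deletion cells (-0.64, SE 0.15, adjusted p = 0.0342). TEF2 had 868 and 828 CPM in old and 1799.5 and 1225 CPM in young deletion cells (-0.83, SE 0.23, adjusted p = 0.0494), and its copy TEF1 1006 and 1003 CPM in old and 1972 and 1455 CPM in young (-0.77, adjusted p = 0.0964). All 4 had old libraries below both young ones, and with the near-identical pairs summed eEF1A was no longer called.

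Daughter-expressed genes moved in the same comparison: 6 of 11 were called lower in old deletion footprints, beside 8.06% of all genes. Their summed share was 0.101 and 0.121% in old and 0.225 and 0.184% in young deletion libraries. In wild-type footprints it was 0.207 and 0.228% in old and 0.145 and 0.206% in young libraries, and none of the 11 was at 0 in any library. Of the 10 stress genes, 3 (HSP104, TPS1 and TPS2) were called lower in old deletion footprints, beside 8.06% of all genes. The part of either list in the members' result was not tested.

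In the Gcn2 pathway, GCN1 footprints were 708 and 847 CPM in old and 1169 and 1199 CPM in young deletion cells, and 801 and 851 CPM in old and 1038 and 1128 CPM in young wild type. GCN1 fell in the deletion (log2 fold change -0.61, SE 0.15, edgeR adjusted p = 0.0382) and was -0.39 in wild type (SE 0.15, adjusted p = 0.189). GCN2 footprints were 75.6 and 72.7 CPM in old and 69.3 and 64.03 CPM in young deletion cells, and 69.7 and 76.7 CPM in old and 57.3 and 58.2 CPM in young wild type. For GCN2 the log2 fold change was 0.15 in the deletion (SE 0.14) and 0.34 in wild type (SE 0.14, adjusted p = 0.195), not called, with no overlap between ages in either strain. GCN2 mRNA was 117 CPM in the old deletion library and 95.6 and 87.0 CPM in young deletion cells, and 112 and 103 CPM in old and 70.3 and 93.5 CPM in young wild type. GCN20 footprints were 238 and 263 CPM in old and 230.1 and 247 CPM in young deletion cells, and 237 and 224 CPM in old and 252 and 262 CPM in young wild type. For GCN20 the log2 fold change was 0.07 in the deletion (SE 0.13), with overlapping ages, and -0.16 in wild type (SE 0.13), where the ages did not overlap. On the TMM scale GCN1 was below 0 and GCN2 above 0 in both strains, and GCN20 lay above 0 in the deletion and below 0 in wild type. With library totals GCN2 and GCN20 were among the members called higher in the deletion and GCN2 among those in wild type, as given above.

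The rule that named STM1, EFT2, EFT1 and CAM1 in wild type, and HCR1 and GCD6 in the deletion, asked for separate ages. Their separation is thus no result, and none was called by edgeR. STM1 footprints were 1877 and 1551 CPM in old and 2516 and 3233 CPM in young wild type (-0.75, SE 0.23, edgeR adjusted p = 0.132). EFT2 was 257 and 241 CPM in old and 358 and 509.8 CPM in young (-0.80, SE 0.21, adjusted p = 0.0950), and EFT1 173 and 156 CPM in old and 221 and 337 CPM in young (-0.76). EFT2 was among the 2 members that DESeq2 called lower in wild type. CAM1 was higher by little, at 606 and 616 CPM in old and 579 and 591 CPM in young wild type (0.06, SE 0.14). In the deletion HCR1, a loosely bound eIF3 subunit that also acts in ribosome recycling, was 419 and 409 CPM in old and 349 and 284 CPM in young (0.39, SE 0.18, adjusted p = 0.162), and GCD6, the catalytic eIF2B subunit, 205 and 225 CPM in old and 205 and 156 CPM in young (0.26, SE 0.22). HEF3 rested on few reads, with 22 and 26 counts in old and 4 and 25 counts in young deletion footprints and 50 and 53 counts in old and 20 and 12 counts in young wild type.

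Footprints per mRNA were compared between ages in wild type, as the interaction of assay with age over 15 libraries. The main fit had no lysate block, so it did not use the pairing of assays. In that fit edgeR called 0 of 44 members, beside 0.0661% of 6050 genes, and DESeq2 also called 0. At an unadjusted p under 0.05, 2 members were higher (CAF20 and GCN20) and 3 lower (FUN12, DED1 and EAP1), beside 4.46% and 2.31% of genes. The members' median log2 change was -0.24 against 0.04 for all genes, with 34 of 44 below 0. That median moved with the young library left out, and stayed below 0. It was -0.11 without young mRNA library 1, -0.48 without young mRNA library 2, -0.47 without young footprint library 1 and -0.05 without young footprint library 2. Leaving out a library also unpairs the assays of its lysate, so these values cannot show whether the median rests on a single library. Taken by lysate, the members' median of footprints per mRNA was 1.46 and 1.41 in old and 1.57 and 1.71 in young wild type. With the lysate as a block, which pairs footprints and mRNA of the same lysate, 2 members rose (CAF20 and GCN20, beside 3.64% of genes) and 9 fell, beside 3.16% (FUN12, TIF4631, TIF3, PAB1, EAP1, EFT1, EFT2, NEW1 and SUP35). Their blocked adjusted p-values ran between 6.96e-05 for NEW1 and 0.0446 for EFT2.

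The largest change was that of DED1, with 9.58 and 12.6 footprints per mRNA in the 2 old lysates and 33.8 and 16.7 in the 2 young ones. The young lysates differed from each other by more than the nearer one did from the old ones. The log2 change was -1.08 (SE 0.33, edgeR adjusted p = 0.571; 0.0791 with the lysate block). NEW1 gave 2.79 and 2.50 in old and 6.86 and 4.89 in young wild type (-1.05, SE 0.62), PAB1 2.31 and 2.43 in old and 4.08 and 4.45 in young, and FUN12 1.42 and 1.24 in old and 2.11 and 2.72 in young. CAF20 went against these, with 1.96 and 1.68 in old and 1.02 and 0.847 in young wild type (0.98, SE 0.32). The single old deletion lysate gave 9.39 for DED1, 2.19 for NEW1, 2.10 for PAB1, 1.23 for FUN12 and 2.24 for CAF20. Young deletion lysates gave 20.2 and 20.5 for DED1, 4.69 and 7.10 for NEW1, 4.39 and 3.43 for PAB1, 2.23 and 2.74 for FUN12 and 0.919 and 0.867 for CAF20. With 1 old deletion library no test was made there. Its value lay below both young deletion lysates for DED1, NEW1, PAB1 and FUN12 and above both for CAF20, and the old wild-type lysates lay likewise to the young ones. These genes were taken from the wild-type comparison and do not stand for all members. The members' median of footprints per mRNA was 1.61 in the old deletion lysate and 1.45 and 1.59 in young deletion lysates, so it was not lower in the old one.

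The strain comparisons asked whether loss of Cth2 alters the members at a given age. None of the 44 was called in young mRNA, young footprints, old footprints, the strain difference of the footprint age response or young footprints per mRNA, beside 0% of all genes in each of these 5 comparisons. The deleted gene TIS11 was thus not called either, with 2 and 17 counts in old deletion and 465 and 516 in old wild-type footprints. So 0 calls do not show that the members were unchanged. In old footprints, 0 members were called with only the groups compared, beside 6.15% of genes, and 0 with voom, beside 1.34%. In the same 5 comparisons, 1 member had an unadjusted p under 0.05, GCD2 in the age response (beside 1.81% of genes lower there), and DESeq2's Wald test called 0 members. The members' medians were 0.08 in young mRNA, 0.02 in young footprints and 0.01 in old footprints. In young cells the sign turned with the library left out. In young mRNA the median was -0.20 without deletion library 1, 0.32 without deletion library 2, -0.10 without wild-type library 1 and 0.27 without wild-type library 2. In young footprints it was -0.19 without deletion library 1, 0.20 without deletion library 2, -0.18 without wild-type library 1 and 0.25 without wild-type library 2. The widest 95% interval of a log2 difference was that of HEF3, -1.67 to 0.85 in young and -1.28 to 0.87 in old footprints.

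GCD2 footprints were 219 and 192 CPM in young deletion and 143 and 181 CPM in young wild type, a log2 difference of 0.34 with a 95% interval of -0.06 to 0.74. In old cells GCD2 was 116 and 122 CPM in the deletion and 149 and 132 CPM in wild type (-0.24, interval -0.64 to 0.17). DED1 mRNA was 158 and 157 CPM in young deletion and 92.0 and 153 CPM in young wild type (0.36, interval -0.31 to 1.02).

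TIF1 had the highest log2 difference in old footprints, with 178 and 159 CPM in the deletion and 154 and 122 CPM in wild type (0.29, interval -0.25 to 0.82). EFT2 had 278 and 311 CPM in the old deletion and 257 and 241 CPM in old wild type (0.25, interval -0.26 to 0.75). EFB1 had 1869 and 1717 CPM in the old deletion and 2224 and 1954 CPM in old wild type (-0.22, interval -1.04 to 0.60). No interval of these 3 genes excluded 0. Their strains' libraries did not overlap, but the rule that named them asked for that, so the separation is no result. The share of all genes without overlap is not given for this comparison. Counts of TIF1 and EFT2 are uncertain between copies, as given above. TEF4, the other gamma subunit of the eEF1A exchange factor, had 1327 and 1363 CPM in the old deletion and 1568 and 1538 CPM in old wild type (-0.21). CAM1 mRNA was 566 and 514 CPM in young deletion and 446 and 465 CPM in young wild type (0.25, interval -0.19 to 0.68). For the 5 genes with the core TATTTAT, the log2 difference in old footprints was 0.16 for TIF11, 0.05 for TIF5, -0.10 for GCD11, 0.12 for CAM1 and -0.09 for GCN1. In young mRNA it was 0.21 for TIF11, 0.02 for TIF5, 0.15 for GCD11, 0.25 for CAM1 and 0.11 for GCN1. No call was made for any of the 5.

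In the Gcn2 pathway the log2 difference between strains in young footprints was 0.13 for GCN1, 0.21 for GCN2 and -0.11 for GCN20, and in old footprints -0.09 for GCN1, 0.02 for GCN2 and 0.12 for GCN20. The intervals in old footprints were -0.44 to 0.27 for GCN1, -0.30 to 0.34 for GCN2 and -0.19 to 0.44 for GCN20. In young footprints per mRNA, the strains did not overlap for 2 members on the high side and 9 on the low side, beside 13.7% and 16.7% of all genes, and none was called. The 2 higher in the deletion were GCD2 (0.30, SE 0.28) and SUI1 (0.19, SE 0.31). The 9 lower were HEF3 (-0.69, SE 0.72), TIF3, which encodes eIF4B (-0.43, SE 0.40), CAM1 (-0.26, SE 0.20), PRT1 (-0.26), GCN3 (-0.24), SUI2 (-0.24), RPG1 (-0.23), EFB1 (-0.15) and GCD11 (-0.10). The members' median in that comparison was -0.05, and it turned with the library left out, at 0.24 without young deletion mRNA library 1 and -0.26 without library 2, and at 0.19 without young wild-type mRNA library 1 and -0.27 without library 2. Leaving out a young footprint library turned it as well, to 0.18 without deletion library 2 and 0.18 without wild-type library 2.

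A further list of 30 genes of translation, recycling and mRNA control was read beside the members, and 29 of them were tested. HYP2, the main eIF5A gene, is listed at 0 in every library and was not tested. HYP2 is known as an abundant gene and ANB1 is its close copy, and whether reads of HYP2 were left out or counted for ANB1 is not known, so the values of ANB1 are uncertain. ANB1, the eIF5A gene that is known to be used when oxygen or heme is low, was called higher with age in the footprints of both strains. It had 102 and 85.5 CPM in old and 41.0 and 29.3 CPM in young deletion cells, and 111 and 102 CPM in old and 24.5 and 33.7 CPM in young wild type. Its log2 fold change was 1.43 in the deletion (SE 0.23, edgeR adjusted p = 0.0134) and 1.87 in wild type (SE 0.23, adjusted p = 0.0110).

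In the deletion 5 more of the 29 were called with age: TIF6, which keeps ribosomal subunits apart, rose, and GCN4, DHH1, SBP1 and PUB1 fell. With ANB1 this made 2 of 29 called higher and 4 lower, beside 9.16% and 8.06% of all genes. In wild type ANB1 was the only call, beside 2.98% of all genes. GCN4, the target of the Gcn2 pathway, had 129 and 101 CPM in old and 262 and 216 CPM in young deletion footprints (-1.06, SE 0.20, adjusted p = 0.0181), and 142 and 114 CPM in old and 168 and 176 CPM in young wild-type footprints (-0.43, adjusted p = 0.237). Its footprints per mRNA were 0.0998 in the old deletion lysate and 0.223 and 0.218 in young deletion lysates, and 0.116 and 0.106 in old and 0.166 and 0.173 in young wild-type lysates. In both strains the old values lay below the young ones. None of the 29 genes was called in any of the 5 strain comparisons.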

How the data were processed

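RNA-seq and ribosome-profiling counts of 15 libraries in 8 groups were used, with groups taken from the sample titles. Per the file headers, each file holds raw read counts per gene and the gene's length for 7127 identifiers; the authors' deposited counts were not normalized. The submitters' processing notes name cutadapt 3.4, Bowtie 1.1.2, STAR 2.7.9a and genome build R64, without their roles. The counting program, its use of strand and its rule for reads that map more than once are not given in the sources used here, so genes that overlap on opposite strands cannot be told apart. Of the identifiers 6047 matched the RefSeq R64 annotation, and overlaps with the other 1080 were not checked.

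Genes were filtered with edgeR's filterByExpr and tested with robust quasi-likelihood F tests (edgeR 4.0.16, R 4.3.3) on TMM-scaled counts, with Benjamini-Hochberg adjustment over all genes of a fit and a threshold of 0.05. Separate fits used 7 mRNA libraries (5991 genes), 8 footprint libraries (5308 genes) and all 15 libraries (6050 genes). All 44 members passed the filter in each. There were 12 comparisons; a change in footprints per mRNA was tested as an assay-by-age or assay-by-strain term. Standard errors are the fold change divided by the root of F. CPM compares a gene between libraries, and TPM, from the lengths in the files, compares genes. The tests were tried on simulated data before use. Alternatives were DESeq2 1.42.0 (Wald test, and its size factors), limma 3.58.1 voom, no filter, library totals, summed near-identical pairs, only the groups compared, blocks, and each library left out.

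The labels number the replicates 1 and 2 in every group but old deletion RNA-seq, which has 1. Deviations from the group mean correlated between footprint and mRNA libraries of one number by 0.826 in young deletion, 0.209 in old wild type and 0.783 in young wild type. The labels describe aliquots of cell lysates used for both assays. The lysate was therefore taken as a pairing of assays in the ratios by lysate and in the lysate block, which was an alternative. The main tests across assays had no block and did not use that pairing. Between ages or strains the correlations lay between -0.865 and -0.0025, so numbers were not taken to pair them. The genes and lists were chosen with earlier results of these data known. Members were named by rule: those called, up to 5 per direction; up to 3 at each end among members with at least 10 CPM on average whose groups did not overlap; the highest and lowest of each role in young wild-type footprints; and GCN1, GCN2 and GCN20. HEF3, in the footprint and age comparisons where it averaged under 10 CPM, and members listed by direction, overlap or role were added after their values were seen.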

Additional observations from a re-analysis of the deposited data

How the results depend on the processing

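Of the alternatives tried on the named members, 1208 kept direction and side of the threshold, 31 passed it newly, 57 no longer passed it, 46 moved without a test and 5 reversed. The 5 reversals all came from library totals, a scaling chosen after seeing the data, in footprints against mRNA: GCN2 was -0.50 in young deletion, -0.56 in old wild type and -0.54 in young wild type, and GCN20 -0.14 in young deletion and -0.073 in young wild type. The count of members called with age in deletion footprints (5) was 8 with library totals, 9 with voom (20.5% of members, beside 19.8% of all genes), 0 with only the groups compared (3.16% of genes), 0 with the replicate block (4.75%) and 0 to 3 leaving out 1 library (0.857% to 22.4%). In wild-type footprints (0) it was 2 with library totals and 2 with DESeq2. The lysate as a replicate block raised the calls in footprints per mRNA with age (0) to 11, beside 6.79% of genes. Those in footprints against mRNA rose to 34 in old wild type (17) and 34 in young deletion (23). In young wild type (24) they rose to 32. The shares of all genes were 65.1%, 69.2% and 67.8%. In old wild type the count was 28 with voom (63.6% of members, beside 62.2% of genes), 35 with only the groups compared (79.5%, beside 67.2%) and 9 to 13 leaving out 1 library (beside 28.2% to 30.4% of genes). In footprints against mRNA it was 12 in young deletion (23) and 15 in young wild type (24) with only the groups compared (beside 30.4% and 30.7% of genes), and 16 to 27 and 16 to 25 leaving out 1 library (beside 41.3% to 43.6% and 38.7% to 44.5%). Replicate numbers did not pair ages or strains, and the replicate block gave 252 calls among all genes with age in deletion footprints, 46 in wild-type footprints and 0 in wild-type mRNA. Crossed numbers, chosen after seeing the data, gave 268 calls among all genes in deletion footprints, 36 in wild-type footprints and 0 between strains in young mRNA and young footprints, with 0 members called in each. Each fit shared its estimate of spread between old and young groups. The SD of the log2 difference between the 2 libraries of a group was 0.23 to 0.27 in old groups. In young groups it was 0.58 to 0.65, so the groups differed in spread. The part of this in the changes with only the groups compared, and any other cause, was not tested. The single old deletion mRNA library allowed no test of age in deletion mRNA, and low counts limit HEF3.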
